A study of Mus musculus with 20 samples.

Results

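MicroRNAs (miRNAs) of the lesion-bearing ascending aorta were compared between chow-fed mice at week 30 and chow-fed mice at week 6. The comparison holds 6 of the 20 arrays of the series, chosen by their titles, with 3 arrays at each week. All were male double knockout mice, with the genotype given as Apobtm2Sgy/Ldltm1Her, a model with apolipoprotein B and low density lipoprotein receptor alleles that raises plasma cholesterol also on chow. The age label repeats the week number, every group carries both alleles, and no wild-type array was used. The other arrays are 2 at week 0 on chow, 3 at week 18 on chow and 3 on high fat diet at each of weeks 6, 18 and 30. Each array is a 1-colour (Cy3) hybridisation of total RNA to Agilent mouse probes, and the values below are scaled signals on the log2 scale, with a floor of 3.09 under which signals have no order.

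A miRNA is a short RNA cut from a hairpin precursor, whose 5p or 3p arm guides the silencing complex to messenger RNAs. Targets are found mainly through the seed, bases 2 to 8 of the mature strand, so miRNAs that share a seed share many targets. Several are transcribed together as clusters, and several mark a lineage: miR-143 and miR-145 are abundant in smooth muscle, miR-126 in endothelium, and miR-142 in blood-derived cells. The miR-181 family is known for its part in lymphocyte development, and the miR-17~92 cluster and its paralogs for growth and proliferation.

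At week 30, 40 of 609 tested miRNAs were lower than at week 6 and 0 were higher (limma, Benjamini-Hochberg adjusted p under 0.05). The called share was 6.57% in the lower direction. At that share a short list of miRNAs would often hold few or no calls. Without adjustment, 110 lower and 19 higher miRNAs had p under 0.05. The 40 fell by 1.37 to 4.71 on the log2 scale, with a median difference of -2.24, against a median of -0.21 over all tested miRNAs. In 24 of them the difference was at least 2 on the log2 scale. In these 40 the week 6 and week 30 arrays did not overlap, as was the case for 189 tested miRNAs that were lower (31%) and 74 that were higher (12.2%). In tissue RNA, fewer cells of a type and less RNA per cell cannot be told apart.

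The mature sequences of the called miRNAs that share a seed are shown first, with bases 2 to 8 in capitals, because 12 of the called miRNAs fell into 4 seed families with at least 2 called members. Of the tested miRNAs, 496 (81.4%) matched RefSeq (assembly GRCm38.p6), among them 32 of the 40. The family of seed ACAUUCA had all 4 of its tested members called, with differences from -2.63 to -4.11.
miR-181a-5p: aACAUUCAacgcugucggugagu
miR-181b-5p: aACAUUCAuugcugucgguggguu
miR-181c-5p: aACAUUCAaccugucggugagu
miR-181d-5p: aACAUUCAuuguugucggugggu

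The miR-17 and miR-20 seed AAAGUGC had 3 of 5 tested members called, and all 5 were negative, with a median of -1.98. Members miR-20a-5p and miR-106b-5p did not pass the threshold.
miR-17-5p: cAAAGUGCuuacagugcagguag
miR-20b-5p: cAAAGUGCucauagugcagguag
miR-93-5p: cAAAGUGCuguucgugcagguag

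The miR-25 and miR-92 seed AUUGCAC had 3 of 3 tested members called, with a median of -2.24, and the miR-18 seed AAGGUGC had 2 of 2.
miR-25-3p: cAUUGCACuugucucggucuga
miR-92a-3p: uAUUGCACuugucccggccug
miR-363-3p: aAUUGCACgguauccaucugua
miR-18a-5p: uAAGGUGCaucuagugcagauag
miR-18b-5p: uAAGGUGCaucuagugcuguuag

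The strongly lower miRNAs outside these families were the following, each with a seed of its own among the called miRNAs.
miR-128-3p: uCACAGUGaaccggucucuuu
miR-130b-3p: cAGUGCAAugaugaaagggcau
miR-181a-1-3p: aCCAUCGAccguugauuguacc
miR-142a-3p: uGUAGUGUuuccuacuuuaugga
miR-142a-5p: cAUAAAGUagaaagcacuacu
miR-19a-3p: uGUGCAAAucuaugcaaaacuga

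Of 42 seed families with at least 2 tested members, 7 held a called member, and 4 held at least 2. The let-7 seed GAGGUAG had 10 tested members and 0 called, although all 10 were negative, with a median of -0.46. In the seed family of miR-130b-3p, AGUGCAA, 1 of 4 members was called and 2 were negative.

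The lymphocyte-related miRNAs lay at the top of the list. Signal for miR-128-3p, abundant in brain and in developing lymphocytes, was 9.62, 9.79 and 9.06 on the week 6 arrays and 4.78, 4.64 and 4.91 on the week 30 arrays. The groups lay far apart, with a difference of -4.71 (SE 0.52, adjusted p = 1.34e-05, limma). In the files' build, mm9, its probes match chr1:130098982-130099001 and chr9:112021188-112021207. RefSeq places its genes Mir128-1 and Mir128-2 within the spans of R3hdm1 and Arpp21, both protein coding.

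For miR-181a-5p, known for setting how T cells respond to antigen, the week 6 arrays read 10.11, 10.05 and 9.44 and the week 30 arrays 6.22, 5.69 and 5.36. The difference was -4.11 (SE 0.71, adjusted p = 0.00116, limma). Its partner miR-181b-5p, known in endothelium for restraining NF-kB signalling, read 8.76, 8.68 and 8.09 at week 6 and 4.72, 4.93 and 4.50 at week 30. That difference was -3.79 (SE 0.41, adjusted p = 1.34e-05, limma), and in both miRNAs every week 30 array lay below every week 6 array.

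The other arm of the miR-181a-1 hairpin, miR-181a-1-3p, read 6.93, 7.05 and 6.29 at week 6 and lay at the floor on all 3 week 30 arrays, where it was not well above background. In the main processing week 6 was therefore at least 12.7-fold higher (group means 6.76 and 3.09 on the log2 scale, adjusted p = 2.15e-06, limma). Such a bound sets the week 6 mean against the dim arrays at the floor, which lay above the dimmest detected miRNA of each week 30 array. It holds for that processing only. The difference of miR-181a-1-3p was -2.01 with normexp background correction and -2.67 with the floor higher by 1. The dimmer members miR-181c-5p and miR-181d-5p had week 6 means of 6.17 ± 0.30 and 6.03 ± 0.24 (SD, n = 3) and were detected on 1 week 30 array each. All 5 tested members of the miR-181 list were called, with a median of -3.67.

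Both genes of the miR-181a-1 and miR-181b-1 cluster lie on chromosome 1. The probes match chr1:139863054-139863067 for miR-181a-5p and chr1:139863236-139863249 for miR-181b-5p in mm9, and a second copy of each lies on chromosome 2, at chr2:38708270-38708283 and chr2:38709374-38709387. All 3 tested miRNAs of the chromosome 1 cluster were called. The probes of miR-181a-5p and miR-181b-5p do not separate the chromosome 1 from the chromosome 2 copy, while miR-181a-1-3p has a match on chromosome 1 only among the positions listed in the files.

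The lymphocyte list had 4 of 7 tested members called, namely miR-128-3p and the miR-181a, miR-181b and miR-181d 5p arms, of which 3 are also on the miR-181 list. All 7 were lower with no overlap between the weeks, as were 31% of all tested miRNAs, and the list's median difference was -2.63. Its summed level ran from 10.91 to 11.52 over the week 6 arrays and from 8.01 to 8.42 over the week 30 arrays. At week 6 the called members made up most of that sum, so its fall is not separate from their calls. Uncalled members included miR-155-5p, induced on activation of lymphocytes and macrophages, at 6.62, 6.72 and 6.28 against 4.58, 4.49 and 4.46 (difference -2.03, adjusted p = 0.232, limma). The mature lymphocyte miRNA miR-150-5p differed by -1.70 (SE 1.12, adjusted p = 0.419, limma). The share of lymphocytes in the tissue was not measured, and its part in these differences was not tested.

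**Figure D1:**
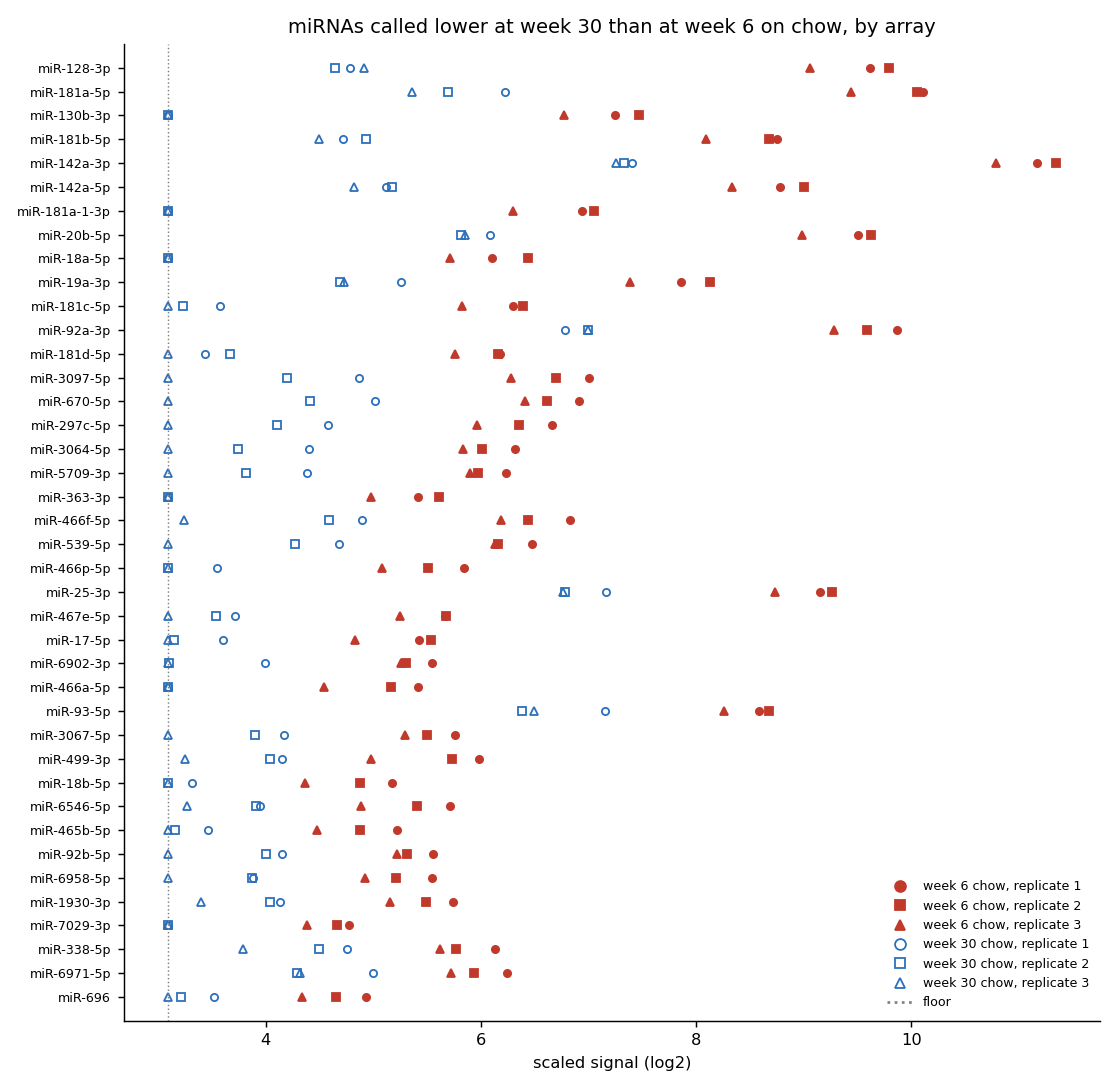
Scaled signal (log2, horizontal axis) of the 40 miRNAs called lower at week 30, ordered by difference, on the 3 week 6 chow arrays (filled) and the 3 week 30 chow arrays (open), with a marker shape per replicate and the floor as a dotted line. In each row all week 6 points lie to the right of all week 30 points, and week 6 replicate 3 is the lowest of its group in all 40.

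Most tested members of the miR-17~92 group fell. Of its 13 tested members, counted over miR-17~92 and its paralog clusters, 9 were called lower and 0 higher. All 13 were lower with non-overlapping arrays, as were 31% of all tested miRNAs, and the median of the 13 was -2.20. On chromosome 14, the miR-17 to miR-92-1 cluster had 4 of 8 tested arms called, and on the X chromosome the miR-363 to miR-18b cluster had 4 of 5, counting miR-92a-3p, which both loci encode, in each. The miR-25 to miR-106b cluster on chromosome 5, inside the span of the replication factor gene Mcm7, had 2 of 3. Of 25 clusters with at least 3 tested miRNAs within 10 kb of one another, 5 held a called miRNA.

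Within the group, miR-20b-5p differed most. Its signal was 9.51, 9.63 and 8.98 at week 6 and 6.08, 5.81 and 5.85 at week 30, a difference of -3.46 (SE 0.68, adjusted p = 0.00362, limma). For miR-19a-3p, of the chromosome 14 cluster, the values were 7.85, 8.12 and 7.38 against 5.25, 4.69 and 4.73 (difference -2.90, adjusted p = 0.00661, limma). In both miRNAs the lowest week 6 array lay above the highest week 30 array.

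The shared arm miR-92a-3p, known for holding back vessel growth in endothelium, read 9.87, 9.59 and 9.28 at week 6 and 6.78, 6.99 and 7.0 at week 30. It fell by 2.66 on the log2 scale (adjusted p = 0.0283, limma), a call kept in 8 of 22 alternatives. Its relative miR-25-3p read 9.16, 9.26 and 8.73 against 7.16, 6.78 and 6.76, a difference of -2.15 (adjusted p = 0.00661, limma). These were bright signals, well above background on all 6 arrays. Dimmer relatives were detected at week 6 and lost at week 30. In the main processing week 6 was at least 7.97-fold higher for miR-18a-5p (means 6.09 and 3.09, adjusted p = 0.000214, limma). For miR-363-3p it was at least 4.73-fold higher (means 5.33 and 3.09, adjusted p = 6.96e-05, limma). With normexp background correction the differences were -1.57 for miR-18a-5p and -1.42 for miR-363-3p, and neither passed.

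The probes of miR-17-5p do not single out 1 miRNA. Both probes of miR-17-5p, 12 and 13 bases long, also match miR-106a-5p, which shares its seed. In mm9 they match chr14:115442916-115442928 and chrX:50095694-50095706. Arms of 1 hairpin did not always move alike: miR-17-3p differed by -1.85 and miR-18a-3p by -0.88, neither called, beside called 5p arms at -1.98 and -2.99.

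Among miRNAs of blood-derived cells, both arms of miR-142a fell. The 3p arm read 11.17, 11.35 and 10.79 at week 6 and 7.41, 7.33 and 7.26 at week 30 (difference -3.77, SE 1.02, adjusted p = 0.0286, limma). The 5p arm differed by -3.67 (SE 0.93, adjusted p = 0.0202, limma), from a mean of 8.71 ± 0.34 to 5.03 ± 0.19 (SD, n = 3). Of 21 alternatives, 9 kept the call of the 3p arm and 11 that of the 5p arm. Spread within each week was small, and the larger standard errors come from a fit that pools the spread of all 7 groups.

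The macrophage and myeloid list had these 2 arms called of 5 tested, with a median of -1.40. Its summed level ran from 11.28 to 11.85 at week 6 and from 8.57 to 9.18 at week 30. At week 6 most of that sum was the called miR-142a-3p, so the fall of the sum is not separate from that call. The granulocyte and macrophage miRNA miR-223-3p, by contrast, overlapped between the weeks, at 7.93, 8.14 and 7.70 against 7.72, 7.08 and 7.08 (difference -0.63, adjusted p = 0.592, limma). The macrophage miRNA miR-511-3p differed by -0.03. The NF-kB induced list had 0 of 5 members called, beside 6.57% of all tested, and its member miR-146a-5p differed by -1.32 (adjusted p = 0.445, limma).

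Signal for miR-130b-3p, a relative of miR-301, was 7.24, 7.47 and 6.77 at week 6 and at the floor on the 3 week 30 arrays. In the main processing week 6 was at least 16.8-fold higher (means 7.16 and 3.09, adjusted p = 0.00116, limma). Over the alternatives the difference of miR-130b-3p ran from -4.70 to -2.14. Its seed relative miR-130a-3p, expressed in endothelium and smooth muscle, differed by 0.40 in the other direction (adjusted p = 0.702, limma).

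Red blood cell miRNAs were lower without a call. All 5 tested members had non-overlapping arrays, as did 31% of tested miRNAs in that direction, with a median of -1.35, and none passed the threshold (limma). The most abundant, miR-451a, read 12.89, 13.04 and 12.42 at week 6 and 12.17, 11.19 and 10.83 at week 30 (adjusted p = 0.281, limma). Nearest to a call was miR-15b-5p, an inhibitor of the cell cycle, at 11.26, 11.37 and 11.01 against 8.80, 7.89 and 7.67 (difference -3.09, SE 0.93, adjusted p = 0.0572, limma). The list's summed level was 13.18 to 13.76 at week 6 and 11.45 to 12.58 at week 30, and its part in the differences above was not tested.

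**Figure D2:**
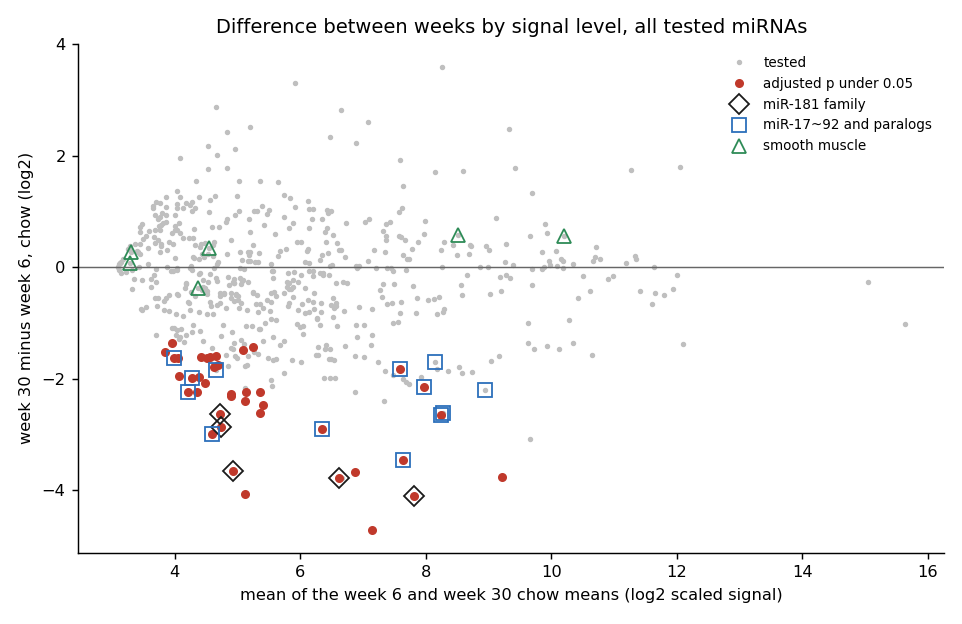
Week 30 minus week 6 difference (log2) against the mean level of both weeks (log2 scaled signal) for the 609 tested miRNAs, with the 40 called ones filled and members of 3 lists outlined. All 5 miR-181 and all 13 miR-17~92 members lie below 0, while 5 of the 6 smooth muscle members lie above it.

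Among miRNAs of the vessel wall, the smooth muscle list had 0 of 6 members called, beside 6.57% of all tested, with a median of 0.30, which turned negative (-0.53) with normexp background correction. In it, miR-145a-5p, which holds smooth muscle in its contractile state, read 8.24, 8.17 and 8.25 at week 6 and 8.78, 8.81 and 8.81 at week 30. The weeks did not overlap, but the difference of 0.58 did not pass (SE 0.34, adjusted p = 0.354, limma). Its cluster partner miR-143-3p differed by 0.56 (SE 0.54, adjusted p = 0.632, limma), from 9.92 ± 0.30 to 10.48 ± 0.12 (SD, n = 3).

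The endothelium list had 1 of 11 members called, the miR-92a-3p described above, beside 6.57% of all tested. The list's other 10 members were positive, with a list median of 0.20. Endothelial miR-126a-3p read 11.34, 11.51 and 10.85 against 11.89, 10.81 and 11.60, with overlapping groups (difference 0.20, adjusted p = 0.90, limma). Of 9 tested fibroblast miRNAs 0 were called (median 0.40), and of 4 tested miR-29 family members, which repress collagen genes, 0 were called (median 0.18). At the share over all tested, lists of these sizes would hold few or no calls. These levels place the defining miRNAs of smooth muscle and endothelium well above background on all 6 arrays.

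Other broad families gave 0 calls as well, namely let-7 (11 tested), miR-30 (7), the miR-15 and miR-16 family (5), miR-322 and miR-503 (3), adipose (9), liver (4), p53 and senescence (7), and the GC-rich or ribosomal RNA derived entries (12). With 6.57% of all tested miRNAs called, lists this short would hold few or no calls, so these counts do not show stable levels. In the miR-15 and miR-16 family 3 of 5 were lower with no overlap between the weeks, as were 31% of all tested. The let-7 members were all negative, with a median of -0.46, which became 0.42 with no scaling between arrays. The cholesterol list had 1 of 9 called, miR-128-3p, which targets the cholesterol exporter ABCA1 and also made the 1 call among 7 neuronal miRNAs. The disturbed flow list had 2 of 8, miR-19a-3p and miR-92a-3p. The best known sterol miRNA, miR-33-5p, was detected on 0 of the 6 arrays and was not tested.

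miRNAs of other tissues differed between single arrays. Keratinocyte miR-205-5p read 7.69, 7.72 and 10.26 at week 6 and 3.09, 7.64 and 3.57 at week 30. The epithelial miR-200c-3p followed the same array at week 30, at 3.09, 7.28 and 3.09, so epithelial signal was present on week 30 replicate 2 and near the floor on the other two. None of the 9 epithelial miRNAs was called (limma), all 9 were negative, and the list's mean level at week 30 ran from 3.76 to 6.91. Skeletal muscle miR-133a-3p was high on week 6 replicate 3, at 10.90 against 8.54 and 8.67 on the other two, and miR-206-3p there read 10.50 against 8.08 and 7.74. The striated muscle list had 0 of 5 called, beside 6.57% of all tested, with a median of 0.04.

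**Figure D3:**
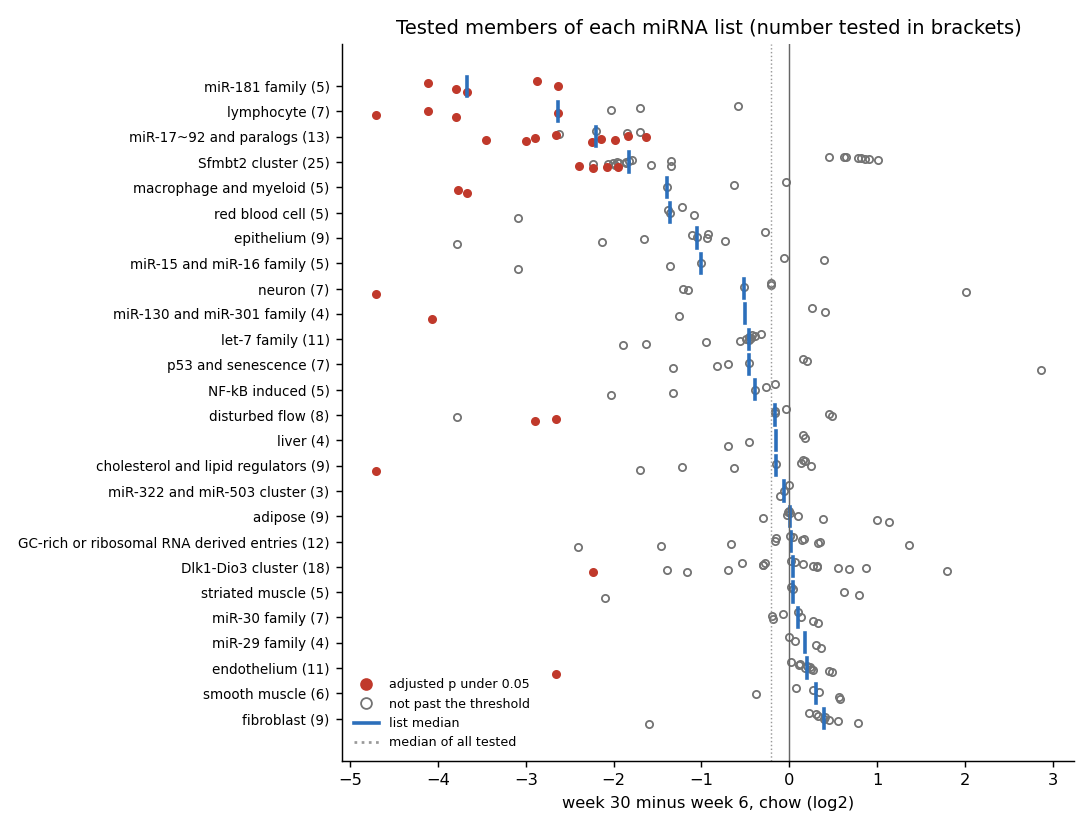
Week 30 minus week 6 difference (log2) of each tested member of 26 miRNA lists, with called members filled, the list median as a vertical bar and the median of all tested miRNAs, -0.21, as a dotted line. The miR-181 list has the lowest median, -3.67, and the fibroblast list the highest, 0.40; some miRNAs are in more than 1 list.

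The remaining called miRNAs were dim, and many lay near the floor. Of the 40, 15 were well above background on all 6 arrays, 20 on 1 or 2 of the week 30 arrays and 5 on none of them. The 25 that were not detected on every week 30 array had week 6 means from 4.61 to 7.16. A dim miRNA could enter the test through detection on the week 6 chow arrays alone. Its entry and its fall are then not separate. With no filter, 60 of 1881 miRNAs were called lower, among them 36 of the 40 (limma). In 24 called miRNAs week 30 replicate 3 was at the floor, and it was the lowest or tied lowest of its group in 34 of 40, against 351 of 609 tested. The lowest of week 6 was replicate 3 in 40 of 40, against 297 of 609.

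The Sfmbt2 cluster, a large repeat-rich imprinted miRNA cluster in an intron of Sfmbt2 on chromosome 2, split by arm. The counts are over the members of the list, which holds miR-466f but not the name miR-466f-5p. All 15 tested members named as 5p arms were lower with no overlap between the weeks, with a median of -1.95, and 4 of them were called: miR-297c-5p, miR-466p-5p, miR-467e-5p and miR-466a-5p. All 6 tested members named as 3p arms were positive, from 0.46 to 1.01, and 0 were called. Over all tested miRNAs, 167 of 274 named as 5p and 140 of 222 named as 3p were negative. Of the 274, 101 were lower with no overlap between the weeks.

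Examples from 1 hairpin show the split. The arm miR-466i-5p read 11.80, 10.53 and 11.96 at week 6 and 10.25, 10.24 and 9.09 at week 30 (difference -1.57, adjusted p = 0.0774, limma). Its partner miR-466i-3p read 6.68, 6.25 and 7.08 against 7.10, 8.31 and 7.18 (difference 0.86, adjusted p = 0.706, limma). Neither arm was called. These near-identical copies share probes: both probes of miR-466p-5p match miR-466k, and 3 of the 4 probes of miR-466f-5p, called at -2.24 (adjusted p = 0.0468, limma), match miR-466j, so their signals are not separate measurements of each copy.

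A run of alternating G and U recurred among the dim called miRNAs. The letters GUGUG occurred in 5 of the 20 called miRNAs that were not detected on every week 30 array and have a sequence, in 0 of the 12 that were detected on all 6 arrays, and in 23 of 496 (4.6%) of all tested miRNAs with a sequence. The motif was chosen after these sequences were seen, is read on the mature RNA strand, and is in capitals here.
miR-3064-5p: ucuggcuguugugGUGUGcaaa
miR-3097-5p: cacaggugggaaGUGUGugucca
miR-539-5p: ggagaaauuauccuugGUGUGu
miR-5709-3p: aaagucuuaaggGUGUGuauug
miR-6902-3p: ccaugugauGUGUGgguucag

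Values of miR-3097-5p and miR-539-5p serve as examples. Signal for miR-3097-5p was 7.01, 6.70 and 6.28 at week 6 and 4.86, 4.20 and 3.09 at week 30, and that for miR-539-5p, of the imprinted Dlk1-Dio3 cluster, was 6.47, 6.16 and 6.13 against 4.68, 4.27 and 3.09. In 16 of the 25 dim called miRNAs week 30 replicate 1 was the highest of its group and replicate 3 the lowest. Over all 609 tested miRNAs, replicate 3 was the lowest or tied lowest of week 30 in 351. Of 18 tested members of the Dlk1-Dio3 cluster, miR-539-5p was the 1 called, beside 6.57% of all tested, and the list's median was 0.04. Across the 496 miRNAs with a sequence, GC content and the difference had a Pearson r of 0.27, which describes miRNAs that share the same 6 arrays and labelling reaction.

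In the upward direction 0 miRNAs passed, although 74 had non-overlapping arrays. The smallest p belonged to miR-7005-5p, at 5.61, 5.58 and 8.21 at week 6 and 9.34, 10.32 and 10.53 at week 30 (difference 3.59, SE 1.12, adjusted p = 0.0634, limma). Week 6 replicate 3 lay between the other week 6 arrays and week 30. It was the highest of week 6 in 8 of the 10 higher miRNAs with the smallest p, against 229 of 609 tested. The same held for miR-6378, at 4.55, 4.60 and 6.56 against 7.60, 8.25 and 8.34 (adjusted p = 0.0642, limma). In contrast, miR-129-2-3p, of a hairpin known from brain, had similar week 6 values of 3.87, 3.69 and 3.42 against 6.80, 5.03 and 5.19 (adjusted p = 0.132, limma). Adjusted p for the 10 ran from 0.0634 to 0.149.

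Week 6 and week 30 chow arrays lay on different slides, so slide and scan session cannot be told apart from week in this comparison. The 5 other arrays of the week 6 slide, were at week 0 on chow and week 6 on high fat. In 33 of the 40 called miRNAs all 3 week 6 chow arrays were above all 5 of these, and also above all 17 other arrays of the series, against 64 of 609 tested miRNAs for the latter. The 40 were chosen for high week 6 chow values, so this count is a description. For miR-128-3p the 17 others ran from 3.52 to 6.48, for miR-181b-5p from 4.42 to 6.53 and for miR-181a-1-3p from 3.09 to 3.84. The exceptions included both arms of miR-142a: on week 6 high fat arrays the 3p arm reached 11.70, above the chow arrays.

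The levels on chow at all 4 weeks are a description, since the week 6 arrays chose the 40 miRNAs. Mean miR-181a-5p was 6.63 at week 0, 9.87 at week 6, 6.49 at week 18 and 5.76 at week 30. Mean miR-128-3p was 5.64, 9.49, 4.43 and 4.78 in the same order. In both miRNAs the week 6 mean was the highest of the 4. The steps from week 0 to week 6 and from week 6 to week 18 share these arrays with the main comparison and called 20.2% of tested miRNAs higher and 16.4% lower, in that order. Between weeks 18 and 30, on 1 slide, 0 miRNAs were called and 6 had unadjusted p under 0.05 (limma).

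**Figure D4:**
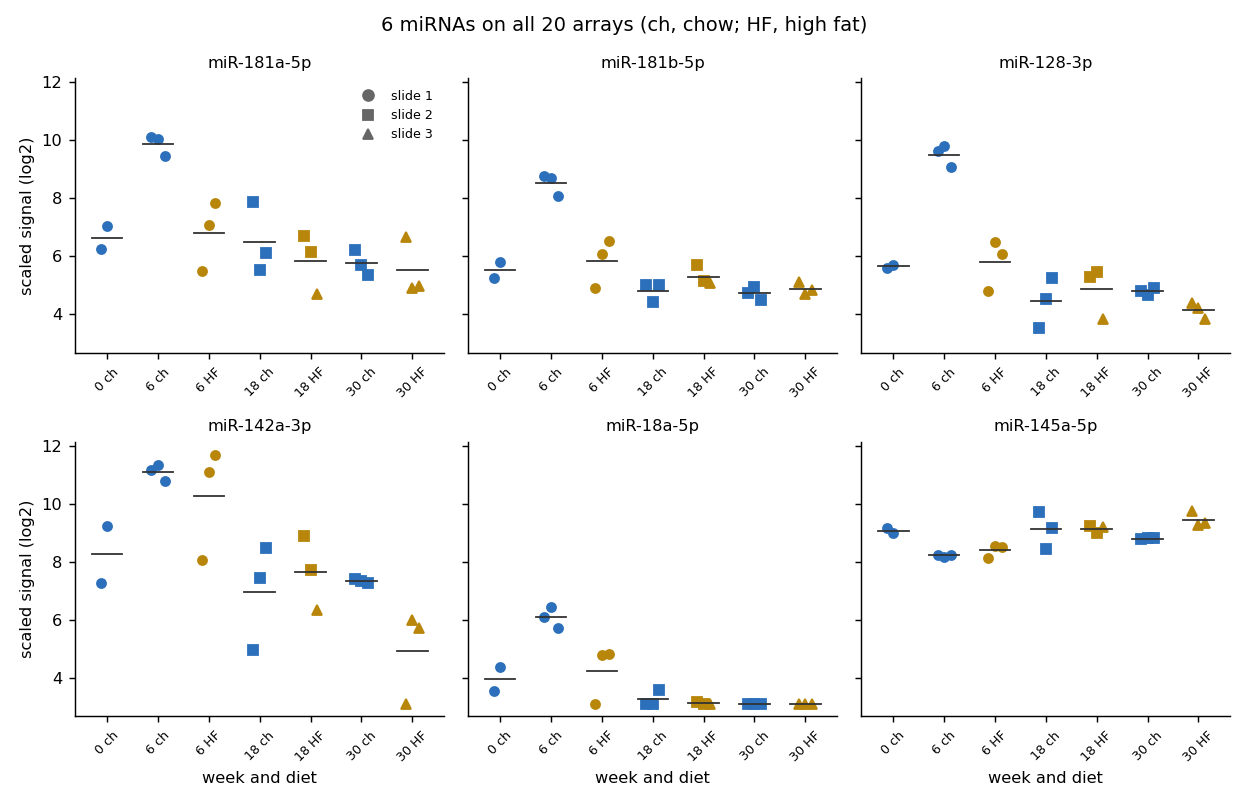
Scaled signal (log2) of 6 miRNAs on all 20 arrays by week and diet, with the group mean as a bar and a marker shape per slide; blue is chow and ochre high fat. The 3 week 6 chow arrays of miR-18a-5p, miR-128-3p, miR-181a-5p and miR-181b-5p lie above all others, those of miR-142a-3p overlap week 6 high fat, and miR-145a-5p stays between 8 and 10 on all arrays.

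On high fat diet the same step in time called 2 miRNAs lower (0.328%) and 0 higher, with 220 at unadjusted p under 0.05 (limma). The count rested on the processing: it was 70 (10 lower, 60 higher) with quantile normalization, 80 (23 lower, 57 higher) with a replicate block and 142 (64 lower, 78 higher) without week 6 high fat replicate 1. The first 2 of these gave 32 and 49 calls on chow. The 2 were the arms of miR-142a, at -5.36 for 3p and -4.80 for 5p (adjusted p = 0.0235 for both, limma). Of the 40 miRNAs lower on chow, 34 were negative on high fat, 4 positive and 2 at 0, with a median of -0.71 against -0.40 over all tested. The 2 comparisons share no array, but week 6 of both lies on 1 slide. Their week 30 arrays lie on different slides and scan sessions, chow on slide 2 and high fat on slide 3.

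The test of the difference between diets called 5 miRNAs (0.821%), all with a smaller step on high fat, and 66 had unadjusted p under 0.05 (limma). They were miR-181b-5p, miR-181a-1-3p, miR-363-3p and the Sfmbt2 members miR-466a-5p and miR-466p-5p. In all but miR-181b-5p the week 6 high fat mean was at or near the floor (3.09 to 3.36), so little or no fall could be seen there. For miR-181b-5p the step was -3.79 on chow and -0.98 on high fat (difference 2.82, SE 0.58, adjusted p = 0.0222, limma), and for miR-128-3p it was -4.71 and -1.65 (adjusted p = 0.0684, limma). Because the diets lay on different slides at week 30, this difference between diets also holds any difference between slides 2 and 3. With the slide as a block 0 of the 5 remained, and with near-identical arrays averaged 1 miRNA was called. Leaving out replicate 1 or 2 of week 6 chow gave 1 call, leaving out replicate 3 of week 30 on either diet gave 2, and leaving out replicate 1 of week 30 on either diet gave 3. The 3p arm of miR-142a had a larger fall on high fat, with a difference of -1.59 that did not pass (SE 1.44, adjusted p = 0.673, limma).

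**Figure D5:**
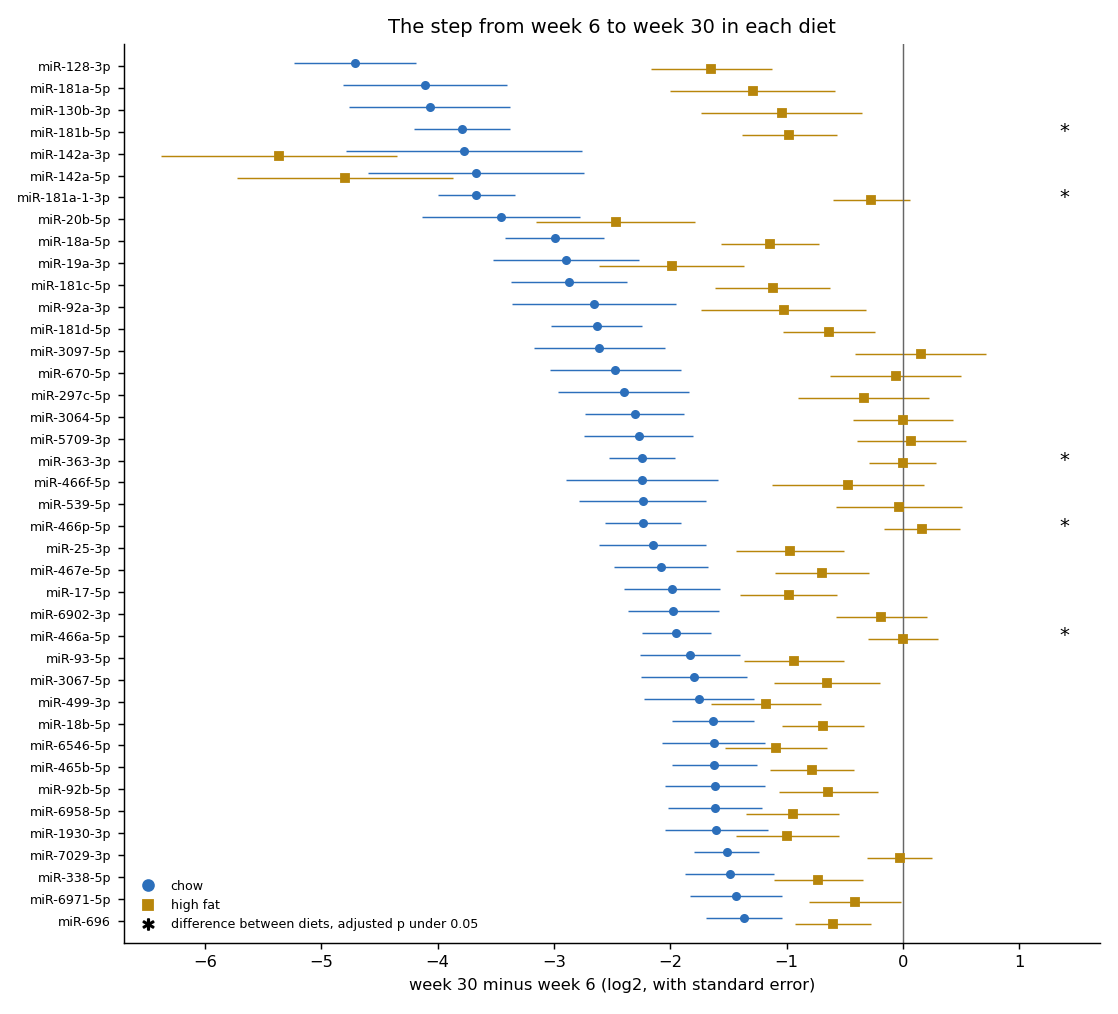
Week 30 minus week 6 difference (log2, bars are standard errors from limma) of the 40 miRNAs called on chow, in chow (circles) and high fat (squares), with an asterisk where the difference between diets had an adjusted p under 0.05. The chow points lie from -4.71 to -1.37, and the high fat points from -5.36 to 0.16.

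The count of 40 moved with single arrays and with scaling. It was 21 without week 6 chow replicate 1, 25 without replicate 2 and 21 without week 30 chow replicate 3, and 17 with week 6 chow replicates 1 and 2 averaged, an unusually close pair (SD of log2 differences 0.28 over 192 miRNAs, against 0.45 to 0.72 for the other pairs within the 2 groups). Over the scaling alternatives the count was 16 with the percentile over all miRNAs, 32 (30 lower, 2 higher) with quantile normalization and 6 with no scaling. In the same order, the median of all tested miRNAs was 0.07, 0.11 and 0.59. All 40 stayed negative in every alternative that tested them. Because their groups did not overlap, leaving out 1 array could not have turned a sign. With the 6 chow arrays alone 133 were lower and 26 higher, and with array weights 186 were lower and 110 higher. Of the 40 calls, 10 were lost in at least as many alternatives as kept them. For 5 of them the call held in every alternative that tested them. These were miR-130b-3p and miR-181a-1-3p (20 alternatives each), and miR-128-3p, miR-181b-5p and miR-181a-5p (21 each). None of the 5 was among the miRNAs detected on all 20 arrays, so that alternative did not test them. The alternative of detection on all 6 chow arrays also did not test miR-130b-3p and miR-181a-1-3p.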

How the data were processed

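The authors deposited linear intensity values for each spot, made with Agilent Feature Extraction 11.5.1 per the file headers. Each of the 20 columns of the deposited value table was identical to the processed signal of its own array. The recorded slide position differed from the sample description for all week 18 chow and all week 30 high fat arrays. It also differed for week 18 high fat replicates 1 and 2. These arrays enter the week 18, high fat and diet comparisons and the pooled spread. The chow arrays of the main comparison had no such mismatch. Whether any array was swapped was not tested. Probe positions refer to mm9 per the file headers; those of the 2 miR-142a arms coincide with GRCm38 and are not printed.

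Each array has 58594 features, of which 56430 are spots for 1881 miRNAs. Between 489 and 629 miRNAs were detected on the 6 arrays, and the number of arrays limits the precision. Control and outlier spots were left out, 0 spots were saturated, and means were taken over spots of a probe, then over probes of a miRNA. Detection required a share of 0.5 or more of a probe's usable spots to be well above background. Arrays were scaled by the 75th percentile of 192 miRNAs that all 20 arrays detected, floored and put on the log2 scale. Tests covered 609 miRNAs, each detected throughout 1 group or more, which could be week 6 chow alone. They used limma 3.58.1 (R 4.3.3), 2-sided, on 20 arrays in 7 groups (13 residual degrees of freedom), which was checked on simulated data. Nothing says the replicates are separate animals, so p-values reflect a spread that may be technical.

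Named miRNAs are the 12 lower and 12 higher with the largest called differences (or, with too few, the 10 with the smallest p), up to 4 per list with the smallest p, a panel of 20, and the 10 with the smallest p between diets; others were singled out after their values were seen. Members and lists were chosen with earlier results of these data known. Replicate numbers were not used to pair the arrays in the main fit.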

Additional observations from a re-analysis of the deposited data

Results flagged for a closer look

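The step from week 6 to week 30 differed between the diets in 5 miRNAs by the interaction test (limma, Benjamini-Hochberg adjusted p under 0.05), as high fat minus chow on the log2 scale: 3.40 for miR-181a-1-3p (adjusted p = 0.000877), 2.24 for miR-363-3p (adjusted p = 0.0107), 2.40 for miR-466p-5p (adjusted p = 0.0142), 2.82 for miR-181b-5p (adjusted p = 0.0222) and 1.95 for miR-466a-5p (adjusted p = 0.0302). For miR-363-3p, miR-466p-5p and miR-466a-5p all 3 week 6 high fat arrays lay at the floor of 3.09, so a fall on high fat could not have been seen. For miR-181a-1-3p the week 6 high fat mean was 3.36, so a fall of 0.27 to the floor, the value measured there, was the most that could be seen. Week 30 chow lay on slide 2 and week 30 high fat on slide 3, and none of the 5 passed with the slide as a block. Groups of 3 arrays are too small for a check of single outlying arrays.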

How the results depend on the processing

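All 40 lower miRNAs on chow kept their sign in every alternative that tested them. The count of calls became 159 with the 6 chow arrays alone (133 lower, 26 higher), 296 with array weights (186 lower, 110 higher; the estimate stopped before full convergence), 17 with near-identical arrays averaged, 16 with the percentile over all miRNAs, 6 with no scaling, 17 and 74 with the floor lower or higher by 1, 2 over miRNAs detected on all 20 arrays (192 tested), 8 over those detected on all 6 chow arrays (406 tested), and 21 to 40 leaving out 1 array. Chosen after seeing the data, leaving out the 4 arrays with the fewest detected miRNAs gave 110. Normexp kept 12 of the 40 among its 30 calls, and quantile normalization 29 among 32. Deviations of same-numbered arrays from their group means correlated at 0.49, -0.46 and 0.44, and those of differently numbered arrays at -0.58 to 0.50. With 3 arrays per group these values cannot show whether replicate numbers pair the arrays. The replicate block gave 49 calls on chow, 80 on high fat (23 lower, 57 higher) and 3 for the difference between diets. On high fat the count of 2 became 94 with array weights (18 lower, 76 higher), 0 with near-identical arrays averaged, no scaling, detection on all 20 arrays or the 4 arrays left out, 16 with the percentile over all miRNAs (3 lower, 13 higher), 70 with quantile normalization (10 lower, 60 higher), 6 with normexp, 10 with no filter, and 0 to 142 leaving out 1 array (142 without week 6 high fat replicate 1, 64 lower and 78 higher, and 0 without any other). The 5 calls between diets became 35 with array weights, 1 with near-identical arrays averaged or quantile normalization, 11 with no filter, 1 to 7 leaving out 1 array, and 0 with the percentile over all miRNAs, no scaling, normexp, detection on all 20 or all 6 chow arrays, or, chosen after seeing the data, the slide as a block. Between weeks 18 and 30 on chow, array weights gave 1 call and the other alternatives 0. The cause of these changes was not tested. For 24 called miRNAs an array at the floor limits the difference.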
